A study of Mus musculus with 26 samples.

Results

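The 10 genes described here are the mouse MHC class II genes and their transactivator, taken by symbol from a raw count table of 57010 gene identifiers. All 10 were found. They comprise the class II chain genes H2-Aa, H2-Ab1 and H2-Eb1, the invariant chain gene Cd74, the peptide-loading genes H2-DMa, H2-DMb1, H2-DMb2, H2-Oa and H2-Ob, and Ciita. They were chosen by known function, with earlier results of these data known. The levels came from right-ear skin of 26 female wild-type Balb/cAnNRj mice, each mouse being 1 library. In 8 mice the ear was challenged with MC903 (calcipotriol, a vitamin D analogue that causes an atopic dermatitis-like inflammation) at 1 nmol per day for 6 days and treated topically with RGRN-305, an inhibitor of the chaperone HSP90, at 1 mg per day for 9 days. In 4 mice the MC903-challenged ear received topical dexamethasone, a glucocorticoid, at 20 nmol per day over the same period. In another 8 mice the MC903-challenged ear received only the ethanol in which the drugs were dissolved (MC903 ears), and 6 mice received vehicle in place of MC903 together with that ethanol (vehicle ears). Ears were sampled on day 9 as 4 mm biopsies, and the mice were bought at 8 weeks of age. Neither drug was given to ears without MC903, so drug effects were measured only on top of the challenge, and each drug was given at 1 dose.

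MHC class II molecules present peptides from endocytosed proteins to CD4+ T cells. The alpha and beta chains pair in the endoplasmic reticulum with the invariant chain, which blocks the peptide groove and guides the complex to endosomes. There cathepsins degrade the invariant chain, H2-DM exchanges its last fragment for antigenic peptide, and H2-O restrains H2-DM. CIITA does not bind DNA itself but docks on the factors RFX, CREB and NF-Y, which sit on the X and Y boxes of class II promoters, and it thereby sets the level of the whole gene group. In skin the genes are expressed mainly by Langerhans cells, dermal dendritic cells and macrophages. B cells also express them, and interferon-gamma can induce them in other cells.

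The promoters are shown because most members moved together across the groups, although H2-Ob did not rise in MC903 against vehicle ears. In the 250 bases before and 50 bases after the start of the Ensembl canonical transcript (GRCm39), the end of the X1 box consensus, spelled ACNGATG, was searched on both strands, as was the Y box core ATTGG. The motifs were chosen with these windows known. The X1 letters were found in 7 of the 10 members and in 8.51% of 21770 protein-coding promoters. The Y core was found in 8 of the 10 members and in 39.9% of those promoters, and both were found in 6 members and in 3.16% of promoters. The first letters of the X1 match and of the nearest Y core after it on the same strand were 29 bases apart in H2-Ab1 and H2-Eb1 and 30 bases apart in H2-DMa and H2-DMb2. In H2-Ab1 a Y core on the reverse strand lay between them. The 120 bases before the start are printed 5′ to 3′ for these 4 genes and for H2-Aa, which had only the Y core in that stretch. Capitals mark the motif matches, and a Y core on the reverse strand reads CCAAT.
H2-Ab1 (chr17:34482063-34482182, plus strand): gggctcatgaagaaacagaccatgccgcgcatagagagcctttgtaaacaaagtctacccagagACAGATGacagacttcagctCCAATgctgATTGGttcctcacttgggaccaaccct
H2-Eb1 (chr17:34524693-34524812, plus strand): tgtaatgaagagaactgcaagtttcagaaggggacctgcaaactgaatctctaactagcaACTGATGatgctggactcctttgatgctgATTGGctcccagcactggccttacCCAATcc
H2-DMa (chr17:34354440-34354559, plus strand): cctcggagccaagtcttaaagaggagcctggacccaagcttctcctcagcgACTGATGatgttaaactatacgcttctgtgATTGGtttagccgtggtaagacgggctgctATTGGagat
H2-Aa (chr17:34506798-34506917, minus strand): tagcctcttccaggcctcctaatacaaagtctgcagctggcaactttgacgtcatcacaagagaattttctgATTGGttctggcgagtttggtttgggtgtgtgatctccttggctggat
H2-DMb2 (chr17:34364054-34364173, plus strand): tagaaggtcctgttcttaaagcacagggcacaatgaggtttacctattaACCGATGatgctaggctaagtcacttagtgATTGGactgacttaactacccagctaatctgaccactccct
These are letters of the reference genome. BALB/c mice carry another haplotype at the class II locus, so their own letters may differ. A match describes letters and not a bound site. Ciita had neither motif in its window. H2-Oa also had both motifs, 94 bases apart, and H2-Aa had the X1 letters on the reverse strand 232 bases before its start. H2-Ob and Cd74 had only the Y core, and H2-DMb1 had only the X1 letters, which began 29 bases after its start.

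Library totals were 20020975 to 26516232 counts in RGRN-305 ears, 20625369 to 28838836 counts in dexamethasone ears, 14311046 to 28036747 counts in MC903 ears and 13695023 to 35130972 counts in vehicle ears. Levels are given as CPM, the counts scaled to a common library size (TMM scaling), and differences as log2 fold changes from edgeR's quasi-likelihood test with Benjamini-Hochberg adjustment over all 20167 genes tested. A gene was called when its adjusted p was below 0.05. Of the labelled tissue, the keratinocyte genes were abundant and the cartilage genes Col2a1 and Acan were detected, although the cartilage gene Matn1 was near 0. Of the 4 dexamethasone ears, mouse 3 stood apart: it held 29 of the 31 Ifng counts of that group and had the highest level of 9 of the 10 members, so results for this group are also given without it. The labels name no batch. The study describes independent experiments, which the labels do not tie to single ears, so no value within an experiment could be computed.

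Some counting limits apply to the members. The messenger sequences of H2-DMb1 and H2-DMb2 are 94.4% identical over 1282 aligned bases, so reads may have been lost or shared between them and the 2 genes are uncertain as separate values. Exons of 7 members overlap another gene, among them 510 bases with Brd2 for H2-DMa, 396 bases with BC051537 for H2-Oa and 633 bases with Dexi for Ciita. The strand setting used in counting was not given in the sources used here. BALB/c mice carry another haplotype at this polymorphic locus than the reference genome, which may lower the mapping of class II reads, in all 4 groups alike. In whole biopsies fewer class II-bearing cells and less class II RNA per cell cannot be told apart.

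Per kilobase of gene model, the level in MC903 ears was highest for Cd74 (435 ± 35 CPM per kb, SD, n = 8), the chaperone of the class II chains. H2-Eb1 followed at 135 ± 14.2 CPM per kb and H2-Ab1 at 124 ± 12.8 CPM per kb, with overlapping ranges over the 8 ears. H2-Aa had 92.2 ± 6.57 CPM per kb and lay below every H2-Ab1 value. The peptide-loading genes H2-DMb2, H2-DMb1 and H2-DMa came next at 22.3 ± 1.98, 18.4 ± 2.25 and 16.3 ± 0.857 CPM per kb. H2-DMb1 overlapped both of its neighbours in this order. Ciita had 2.90 ± 0.531 CPM per kb, and H2-Oa and H2-Ob were lowest at 0.377 ± 0.155 and 0.226 ± 0.0401 CPM per kb, again with overlapping ranges. Together the 10 genes made up 0.111% of all counts in RGRN-305 ears, 0.0244% in dexamethasone ears, 0.172% in MC903 ears and 0.110% in vehicle ears (means per group).

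**Figure D1:**
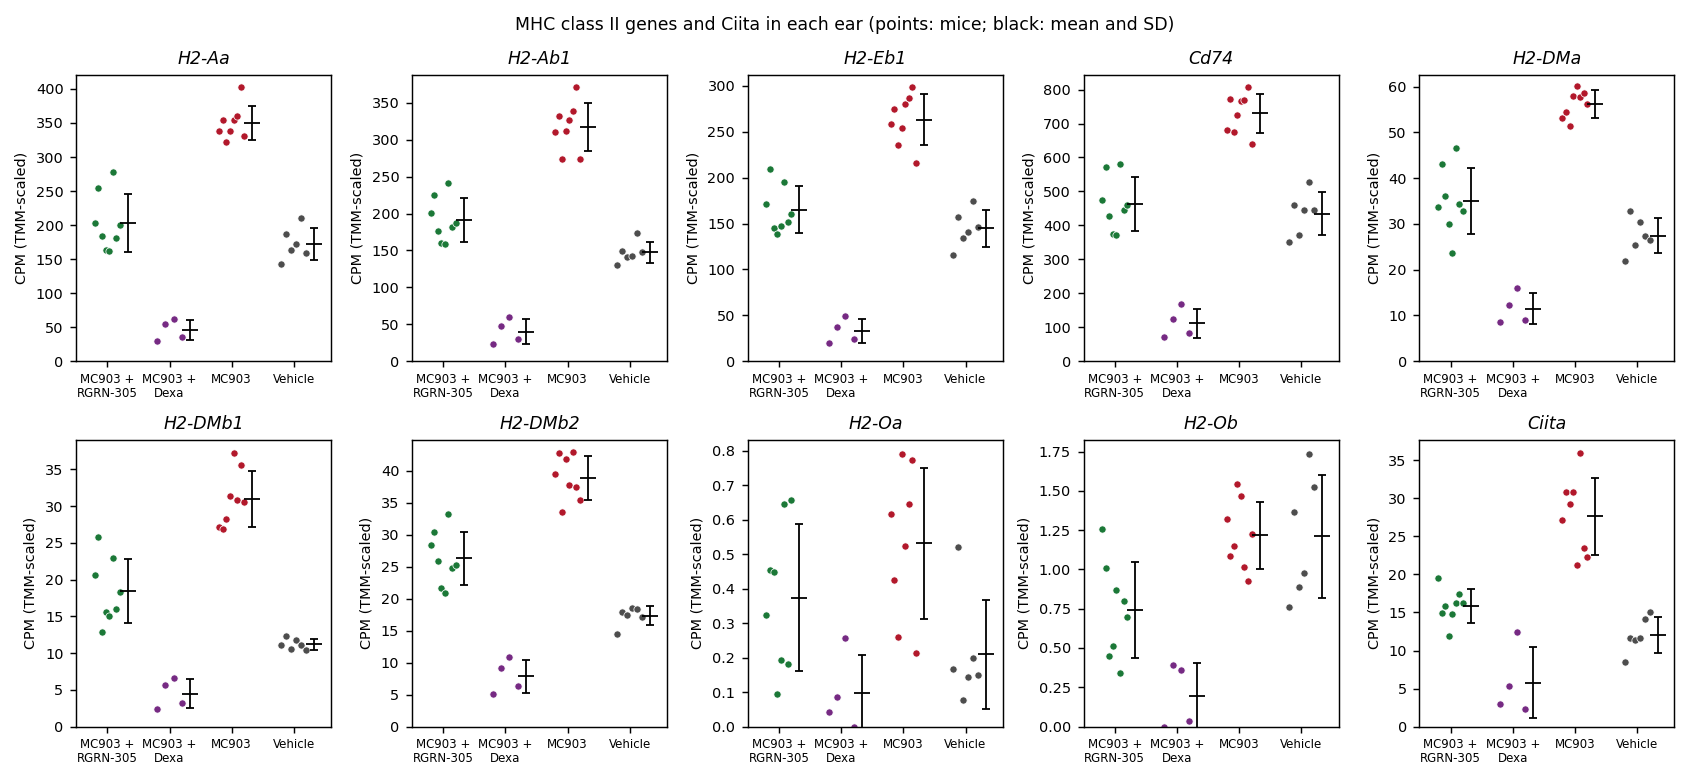
TMM-scaled CPM of each of the 10 members in every ear, with the 4 treatment groups along the horizontal axis and the group mean and SD beside the points. For H2-Aa the dexamethasone ears sit between 30.4 and 62.5 CPM, below all other ears, and the MC903 ears between 322 and 403 CPM, above all other ears.

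H2-Aa (ENSMUSG00000036594, chr17:34493404-34506798, minus strand) encodes the alpha chain of the I-A molecule. Its level was 162 to 278 CPM in RGRN-305 ears (median 192), 30.4, 54.8, 62.5 and 35.5 CPM in dexamethasone ears 1 to 4, 322 to 403 CPM in MC903 ears (median 346) and 142 to 210 CPM in vehicle ears (median 168). The dexamethasone ears were all lowest, the MC903 ears were all highest, and RGRN-305 and vehicle ears overlapped. H2-Ab1 (ENSMUSG00000073421, chr17:34476663-34488393, plus strand), which encodes the partner beta chain, had 158 to 242 CPM in RGRN-305 ears (median 184), 23.9, 47.6, 59.6 and 29.5 CPM in dexamethasone ears 1 to 4, 274 to 371 CPM in MC903 ears (median 320) and 130 to 174 CPM in vehicle ears (median 145). Here 6 of the 8 RGRN-305 ears lay above every vehicle ear. H2-Eb1 (ENSMUSG00000060586, chr17:34504236-34535648, plus strand) encodes the beta chain of the I-E molecule. It had 138 to 210 CPM in RGRN-305 ears (median 156), 20.0, 37.1, 48.8 and 23.9 CPM in dexamethasone ears 1 to 4, 216 to 298 CPM in MC903 ears (median 267) and 115 to 174 CPM in vehicle ears (median 144). RGRN-305 ears were again below every MC903 ear and overlapped the vehicle ears.

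Cd74 (ENSMUSG00000024610, chr18:60936899-60945731, plus strand) encodes the invariant chain. Its level was 373 to 580 CPM in RGRN-305 ears (median 452), 70.7, 125, 167 and 83.8 CPM in dexamethasone ears 1 to 4, 641 to 807 CPM in MC903 ears (median 746) and 352 to 527 CPM in vehicle ears (median 445). It had the order of the chain genes, and RGRN-305 and vehicle ears overlapped over most of their range. Within groups the same mice tended to be at the ends: of H2-Aa, H2-Ab1, H2-Eb1 and Cd74, dexamethasone mouse 3 and MC903 mouse 7 had the highest and vehicle mouse 1 the lowest level in their groups.

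H2-DMa (ENSMUSG00000037649, chr17:34338515-34358958, plus strand) encodes the alpha chain of the peptide exchange factor H2-DM. It had 23.6 to 46.6 CPM in RGRN-305 ears (median 34.1), 8.55, 12.4, 16.1 and 9.10 CPM in dexamethasone ears 1 to 4, 51.5 to 60.1 CPM in MC903 ears (median 57.0) and 21.8 to 32.8 CPM in vehicle ears (median 26.9). Only RGRN-305 and vehicle ears overlapped. H2-DMb1 (ENSMUSG00000079547, chr17:34372046-34379204, plus strand), an H2-DM beta chain gene, had 12.9 to 25.8 CPM in RGRN-305 ears (median 17.2), 2.41, 5.66, 6.61 and 3.17 CPM in dexamethasone ears 1 to 4, 26.8 to 37.3 CPM in MC903 ears (median 30.7) and 10.4 to 12.3 CPM in vehicle ears (median 11.1). H2-DMb2 (ENSMUSG00000037548, chr17:34362197-34370529, plus strand), the other H2-DM beta chain gene, had 20.9 to 33.2 CPM in RGRN-305 ears (median 25.6), 5.03, 9.16, 10.8 and 6.41 CPM in dexamethasone ears 1 to 4, 33.6 to 43.0 CPM in MC903 ears (median 38.7) and 14.5 to 18.6 CPM in vehicle ears (median 17.8). For both beta chain genes no 2 groups overlapped, and the order was dexamethasone, vehicle, RGRN-305 and MC903 ears, low to high.

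H2-Oa and H2-Ob encode the chains of H2-O, the inhibitor of H2-DM, which is best known from B cells. H2-Oa (ENSMUSG00000024334, chr17:34311314-34314328, plus strand) had 2 to 15 counts per RGRN-305 ear (0.0937 to 0.656 CPM, median 0.386), 1, 2, 5 and 0 counts in dexamethasone ears 1 to 4, 4 to 20 counts per MC903 ear (0.213 to 0.791 CPM, median 0.570) and 3 to 8 counts per vehicle ear (0.0763 to 0.521 CPM, median 0.157). All groups overlapped at this depth. H2-Ob (ENSMUSG00000041538, chr17:34457836-34473388, plus strand) had 0.344 to 1.26 CPM in RGRN-305 ears (median 0.749), 0, 0.389, 0.359 and 0.0368 CPM in dexamethasone ears 1 to 4, 0.927 to 1.54 CPM in MC903 ears (median 1.19) and 0.761 to 1.74 CPM in vehicle ears (median 1.17). For H2-Ob, MC903 and vehicle ears covered a similar range, and the dexamethasone ears lay below both. The B cell markers were also scarce: their summed level was 0.746 to 1.36 CPM in RGRN-305 ears, 0.737 to 0.884 CPM in dexamethasone ears, 1.0 to 2.63 CPM in MC903 ears and 0.560 to 1.19 CPM in vehicle ears, and only 2 of the 6 markers had enough counts to be tested.

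Ciita (ENSMUSG00000022504, chr16:10297923-10347694, plus strand) encodes the class II transactivator. Its level was 11.9 to 19.5 CPM in RGRN-305 ears (median 16.0), 3.03, 5.36, 12.5 and 2.25 CPM in dexamethasone ears 1 to 4, 21.2 to 36.0 CPM in MC903 ears (median 28.2) and 8.44 to 15.1 CPM in vehicle ears (median 11.6). MC903 ears were above all others. Dexamethasone mouse 3 lay among the vehicle ears and above the lowest RGRN-305 ear, and the other 3 dexamethasone ears lay below both groups.

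The MC903 challenge raised class II expression. Of the 10 members 9 were called higher in MC903 than in vehicle ears, where 34.5% of all genes tested were called higher, and for 8 members the groups did not overlap, as for 20.9% of genes in this direction. The median log2 fold change of the members was 1.07, and that of all genes was −0.02. The chain genes H2-Aa, H2-Ab1 and H2-Eb1 rose by 1.02 ± 0.14, 1.11 ± 0.14 and 0.86 ± 0.14 (log2 ± SE, adjusted p = 2.08e-07, 1.09e-07 and 5.65e-06, edgeR), and Cd74 rose by 0.75 ± 0.14 (adjusted p = 3.3e-05). The largest increase among well-counted members was that of H2-DMb1 at 1.47 ± 0.16 (adjusted p = 6.43e-09), with H2-DMb2 at 1.17 ± 0.12, H2-DMa at 1.04 ± 0.13 and Ciita at 1.20 ± 0.23 (adjusted p = 6.88e-05). H2-Oa was called at 1.46 ± 0.47 (adjusted p = 0.00681) with 5 of 8 MC903 ears above every vehicle ear. H2-Ob was the member not called, with a log2 fold change of 0.03 (95% interval −0.63 to 0.68, adjusted p = 0.946). An exact two-sided permutation test of mean log2 CPM gave p = 0.000666 (adjusted over 60 tests, 0.00222), the smallest that 8 against 6 ears allow, for each of the 8 members without overlap.

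RGRN-305 lowered class II expression in MC903-challenged ears. Mean CPM fell by 32.4% for H2-DMb2, the smallest, and fell by 42.6% for Ciita, the largest, among 8 members that were called lower in RGRN-305 than in MC903 ears, where 19.4% of all genes were called lower. None of the RGRN-305 ears reached the lowest MC903 ear for any of these 8 genes, a separation seen for 7.18% of genes in this direction. On the log2 scale H2-Aa changed by −0.78 ± 0.12 (SE), H2-Ab1 by −0.73 ± 0.13, H2-Eb1 by −0.67 ± 0.13 and Cd74 by −0.66 ± 0.13 (adjusted p = 1.43e-05, 5.31e-05, 0.000154 and 0.000189, edgeR). H2-DMa, H2-DMb1 and H2-DMb2 changed by −0.68 ± 0.12, −0.75 ± 0.14 and −0.56 ± 0.11, and Ciita by −0.80 ± 0.21 (adjusted p = 0.00378). The median over the 10 members was −0.70, and that of all genes was 0.03. The changes were smaller than the log2 fold change of 1.5 that the study required of a differentially expressed gene. H2-Ob had −0.71 ± 0.31 (adjusted p = 0.0714) with 6 of 8 RGRN-305 ears below every MC903 ear, and H2-Oa had −0.49 (95% interval −1.30 to 0.32, adjusted p = 0.350). The exact permutation test gave its smallest possible p of 0.000155 (adjusted 0.00117) for the 8 called genes and 0.00357 (adjusted 0.00673) for H2-Ob.

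Dexamethasone lowered all 10 members relative to MC903 ears, where 23.3% of all genes were called lower, and all 10 also passed the log2 fold change of 1.5, as did 5.89% of genes in this direction. The groups did not overlap for 9 members, against 14.0% of genes. H2-Aa, H2-Ab1 and H2-Eb1 were 7.65-, 7.92- and 8.13-fold lower (log2 −2.94 ± 0.18, −2.99 ± 0.18 and −3.02 ± 0.19, adjusted p = 1.33e-12, 2.57e-12 and 2.8e-12, edgeR) and Cd74 was 6.54-fold lower (−2.71 ± 0.18). H2-DMb1 was 7.0-fold lower, and H2-DMa, H2-DMb2 and Ciita changed by −2.29 ± 0.16, −2.32 ± 0.15 and −2.29 ± 0.30 (adjusted p = 1.2e-11, 3.25e-12 and 9.12e-07). The scarce H2-Oa and H2-Ob had −2.52 ± 0.63 and −2.68 ± 0.48. Without dexamethasone mouse 3, all 10 members were called lower, with −2.97 for Ciita, −3.24 for H2-Ab1 and −3.54 for H2-Oa. The exact permutation p was 0.00404 (adjusted 0.00673), the smallest that 4 against 8 ears allow, for the 9 members without overlap.

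**Figure D2:**
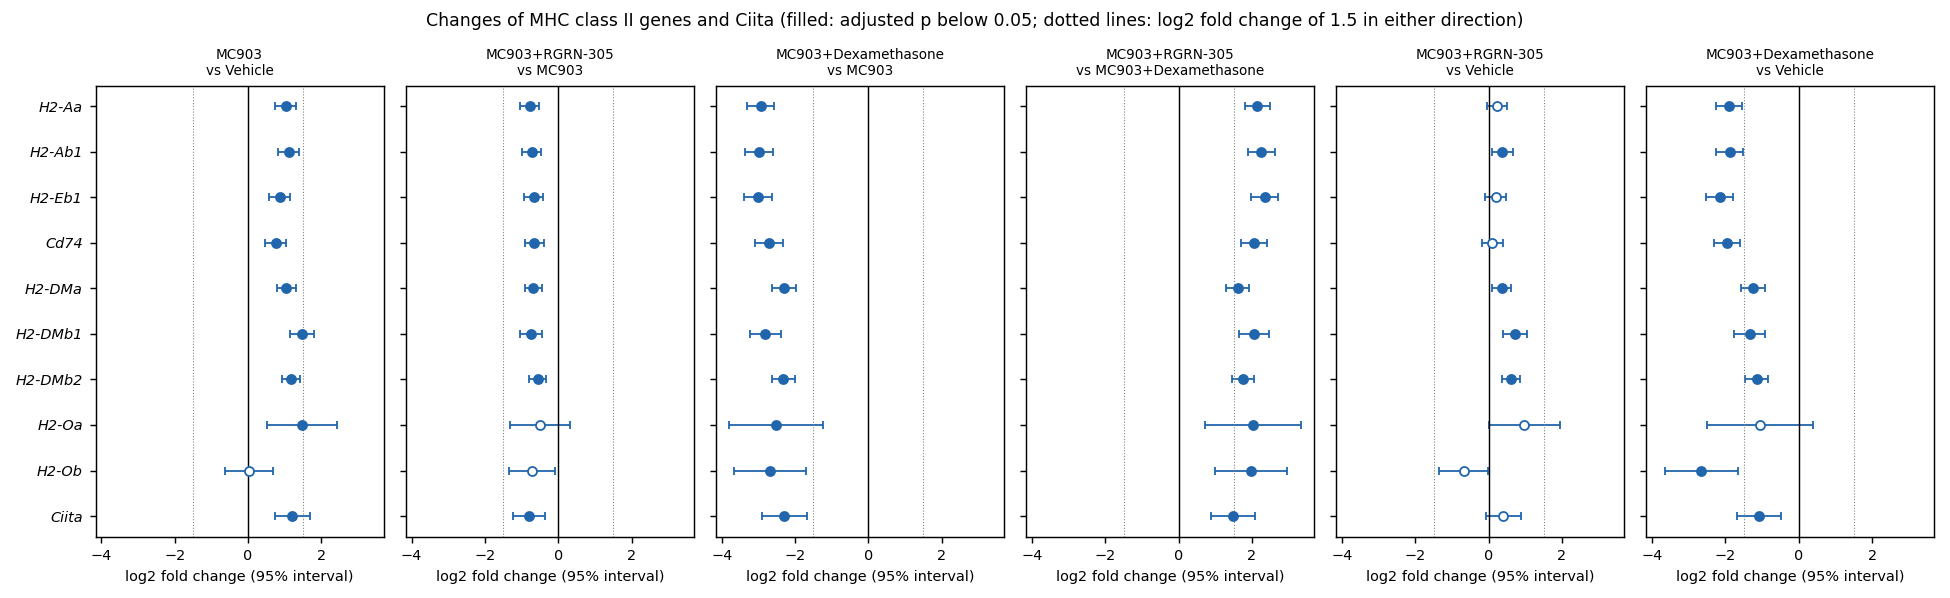
Log2 fold change with its 95% interval for each of the 10 members (vertical axis) in 1 panel per comparison, filled where the adjusted p was below 0.05. The RGRN-305 against MC903 points of the 8 called members lie between −0.80 and −0.56, and the dexamethasone against MC903 points of all 10 lie between −3.02 and −2.29.

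The drugs differed from each other at the single dose of each. All 10 members were called higher in RGRN-305 than in dexamethasone ears, where 17.6% of genes were called higher, and 7 did not overlap, as for 9.09% of genes. H2-Eb1 was 5.09-fold, H2-Ab1 4.78-fold, H2-Aa 4.44-fold and Cd74 4.15-fold higher in RGRN-305 ears (log2 2.35 ± 0.18, 2.26 ± 0.18, 2.15 ± 0.17 and 2.05 ± 0.17, adjusted p = 1.62e-10, 2.2e-10, 2.2e-10 and 7.87e-10, edgeR). Ciita was 2.80-fold higher (1.49 ± 0.29, adjusted p = 0.000259), with 7 of 8 RGRN-305 ears above every dexamethasone ear, and its difference was 2.17 ± 0.22 without dexamethasone mouse 3. H2-Oa was called at 2.03 (3.05 without mouse 3) with an adjusted p of 0.0144, which became 0.0576 without dexamethasone mouse 1 and 0.0674 without mouse 4. The exact permutation p for the 7 members without overlap was 0.00404 (adjusted 0.00673).

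Relative to vehicle ears, most members were not called in RGRN-305 ears, and most were called lower in dexamethasone ears. In RGRN-305 ears 4 of the 10 members were called higher than in vehicle ears, a share near the 30.3% of all genes called higher. They were H2-DMb1 (0.72 ± 0.16, adjusted p = 0.000347, edgeR), H2-DMb2 (0.60 ± 0.12, adjusted p = 9.46e-05), H2-Ab1 (0.38 ± 0.14, adjusted p = 0.0212) and H2-DMa (0.36 ± 0.13, adjusted p = 0.0156). The 2 H2-DM beta chain genes did not overlap between the groups, as 13.8% of genes. With vehicle mouse 1 left out, H2-Ab1 and H2-DMa were no longer called (adjusted p = 0.0588 and 0.0604) and H2-Ob was called lower (log2 −0.81, adjusted p = 0.0437), as were 29.5% of all genes in the main test. When libraries were scaled by their totals, H2-Ab1 and H2-DMa likewise lost the call (log2 0.18 and 0.17), H2-Ob was called lower, and H2-Eb1 and Cd74 turned to −0.00431 and −0.0995. H2-Ob had −0.68 ± 0.33 (adjusted p = 0.0728) with 4 of 8 RGRN-305 ears below every vehicle ear, and H2-Oa had 0.97 ± 0.48 (adjusted p = 0.0788) and was called without vehicle mouse 2 (1.33, adjusted p = 0.0198). H2-Aa, H2-Eb1 and Cd74 were not called in the main test, with 95% intervals of −0.04 to 0.51, −0.10 to 0.47 and −0.19 to 0.38. Ciita had 0.40 (interval −0.08 to 0.88, adjusted p = 0.139), with 5 of 8 RGRN-305 ears above every vehicle ear, an exact permutation p of 0.00799 (adjusted 0.0119) and an edgeR adjusted p of 0.022 without dexamethasone mouse 3.

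In dexamethasone ears 9 members were called lower than in vehicle ears, where 29.4% of genes were called lower, and 8 did not overlap, as for 22.1% of genes. H2-Eb1 had a log2 fold change of −2.16 ± 0.18 (adjusted p = 1.46e-10, edgeR), Cd74 −1.96 ± 0.18, H2-Aa −1.91 ± 0.17 and H2-Ab1 −1.88 ± 0.18. The loading genes H2-DMb1, H2-DMa and H2-DMb2 had −1.34 ± 0.21, −1.25 ± 0.16 and −1.15 ± 0.15. H2-Ob had −2.66 ± 0.49 (adjusted p = 3.75e-05). Ciita had −1.09 ± 0.29 (adjusted p = 0.00305) with 3 of 4 dexamethasone ears below every vehicle ear, and −1.77 without dexamethasone mouse 3. H2-Oa was not called at −1.06 (interval −2.50 to 0.39), but was called at −2.07 without that mouse (adjusted p = 0.0417). The median over the 10 members was −1.61, and that of all genes was −0.05. The exact permutation p of the 8 members without overlap was 0.00952 (adjusted 0.0119), the smallest that 4 against 6 ears allow.

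The members did not all keep the same proportions. Counts of H2-DMa per count of H2-Ab1 were 0.149 to 0.206 in RGRN-305 ears, 0.260 to 0.357 in dexamethasone ears, 0.158 to 0.205 in MC903 ears and 0.157 to 0.219 in vehicle ears. The dexamethasone ears thus held more H2-DMa for each H2-Ab1 count than any other ear (exact permutation p = 0.00404, adjusted over 36 ratio tests 0.00808, against MC903 ears), whereas the p between the remaining groups was 0.507 to 0.765. Counts of Cd74 per count of H2-Ab1 were 2.35 to 2.53 in RGRN-305 ears, 2.62 to 2.95 in dexamethasone ears, 2.18 to 2.46 in MC903 ears and 2.65 to 3.13 in vehicle ears. On this ratio dexamethasone and vehicle ears overlapped and lay above RGRN-305 and MC903 ears. These ratios were chosen with the values known. All ratios tested here and below were picked from a larger set that was computed. Their adjusted p-values do not account for that choice.

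**Figure D3:**
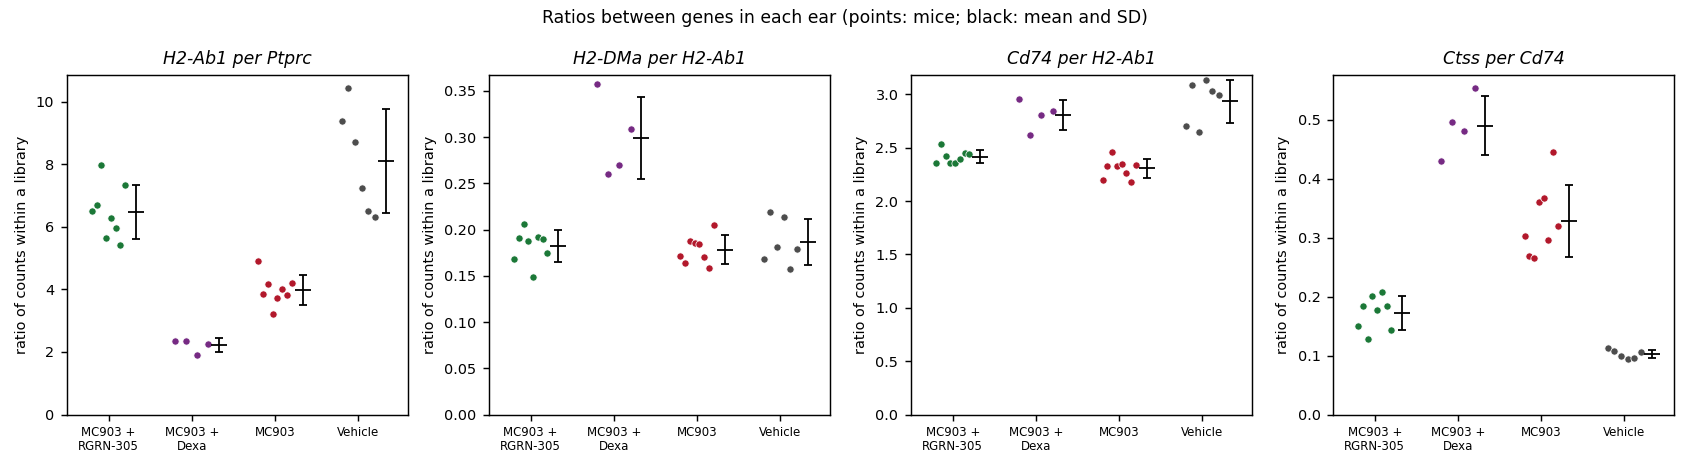
Count ratios in every ear, with the 4 groups along the horizontal axis: H2-Ab1 per Ptprc, H2-DMa per H2-Ab1, Cd74 per H2-Ab1 and Ctss per Cd74. The dexamethasone ears lie lowest for H2-Ab1 per Ptprc (1.90 to 2.36) and highest for H2-DMa per H2-Ab1 (0.260 to 0.357).

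The remaining chain gene of the I-E molecule, H2-Ea, moved as the members did. It averaged 174 ± 32.8 CPM in RGRN-305 ears, 44.4 ± 17.6 CPM in dexamethasone ears, 295 ± 26.6 CPM in MC903 ears and 172 ± 20.4 CPM in vehicle ears (SD). The differences (log2) were 0.78 for MC903 against vehicle, −0.76 for RGRN-305 against MC903 and −2.73 for dexamethasone against MC903, all called. H2-Eb2, with 0 to 4 counts per ear, had too few counts to be tested.

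The genes for the promoter-bound partners of CIITA changed little. Of 7 (Rfx5, Rfxap, Rfxank, Nfya, Nfyb, Nfyc and Creb1), 1 was called higher and 1 lower in MC903 against vehicle ears, 2 higher and 1 lower in RGRN-305 against MC903 ears, and 2 lower in dexamethasone against MC903 ears. Of all 20167 genes tested, 6951 were called higher and 7209 lower in MC903 against vehicle ears. The numbers were 3745 and 3905 in RGRN-305 against MC903 ears, and 4707 were lower in dexamethasone against MC903 ears. Rfx5, which encodes the DNA-binding RFX subunit, was at 0.29 in RGRN-305 against MC903 ears (adjusted p = 0.0177) and at −0.34 in MC903 against vehicle ears (adjusted p = 0.00512). Nfyb, encoding a subunit of NF-Y, was at −0.48 in dexamethasone against MC903 ears (adjusted p = 1.09e-05).

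Genes of the interferon-gamma route that induces Ciita were higher after the challenge and lay above their vehicle level under both drugs. Ifng, Ifngr1, Ifngr2, Jak1, Jak2 and Irf1, 6 genes, were all called higher in MC903 than in vehicle ears, with a median of 1.38. In RGRN-305 against MC903 ears 4 were called lower (median −0.74) and in dexamethasone against MC903 ears 3 (median −0.92), or 4, with Irf1, without dexamethasone mouse 3. Of all genes, 34.5% were called higher in MC903 than in vehicle ears, and 19.4% (RGRN-305) and 23.3% (dexamethasone) lower than in MC903 ears. Against vehicle ears all 6 were called higher both in RGRN-305 ears (median 0.66) and in dexamethasone ears (median 0.47), where 30.3% and 26.4% of all genes were called higher. With library totals as the scaling these counts were 3 and 2, and without dexamethasone mouse 3 the dexamethasone count was 5, as Ifng was not called (adjusted p = 0.199). Ifng, the cytokine gene, had 0 counts in all 6 vehicle ears. Against a floor of 3 counts over those libraries, its mean of 0.539 CPM in RGRN-305 ears, 0.393 CPM in dexamethasone ears and 1.73 CPM in MC903 ears was at least 29.6-fold, 21.6-fold and 95.2-fold higher than in vehicle ears. The dexamethasone value came mainly from mouse 3, at 1.49 CPM. The other 3 dexamethasone ears held 1, 1 and 0 counts, or 0.0409, 0.0432 and 0 CPM, beside a floor of 0.0182 CPM. The 21.6-fold value thus does not describe those 3 ears.

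Between the drugs, 1 of the 6 genes of this route was called with all ears in the fit, against all 10 class II members. Without dexamethasone mouse 3 it was 3 of 6, each higher in RGRN-305 ears, as the members were. The difference between the gene groups was not tested. Irf1, a transcription factor induced by interferon-gamma, averaged 70.0 ± 30.9 CPM in RGRN-305 ears and had 12.0, 57.7, 186 and 25.3 CPM in dexamethasone ears 1 to 4, against 148 ± 19.9 CPM in MC903 ears and 15.4 ± 2.86 CPM in vehicle ears. Between RGRN-305 and dexamethasone ears only Ifngr2 of the 6 was called (0.55, adjusted p = 3.64e-05, edgeR), while Irf1 had 0.00 ± 0.44. This rested on dexamethasone mouse 3. Without it 3 of 6 genes of the interferon-gamma route to Ciita were called higher in RGRN-305 ears, Irf1 at 1.15 (adjusted p = 0.0204) and Ifng at 4.09 (adjusted p = 0.00303) besides Ifngr2. Without that mouse Ciita stood at −1.77 and Irf1 at 1.05 (adjusted p = 0.0201) in dexamethasone against vehicle ears, both called. With all groups in the fit, Ciita was called lower and Irf1 higher in dexamethasone than in vehicle ears, with and without mouse 3. Ciita lost the call with only those 2 groups in the fit (edgeR adjusted p = 0.0502). Irf1 in dexamethasone ear 1, at 12.0 CPM, was below the vehicle mean of 15.4 CPM. A link between the route and Ciita was not tested.

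**Figure D4:**
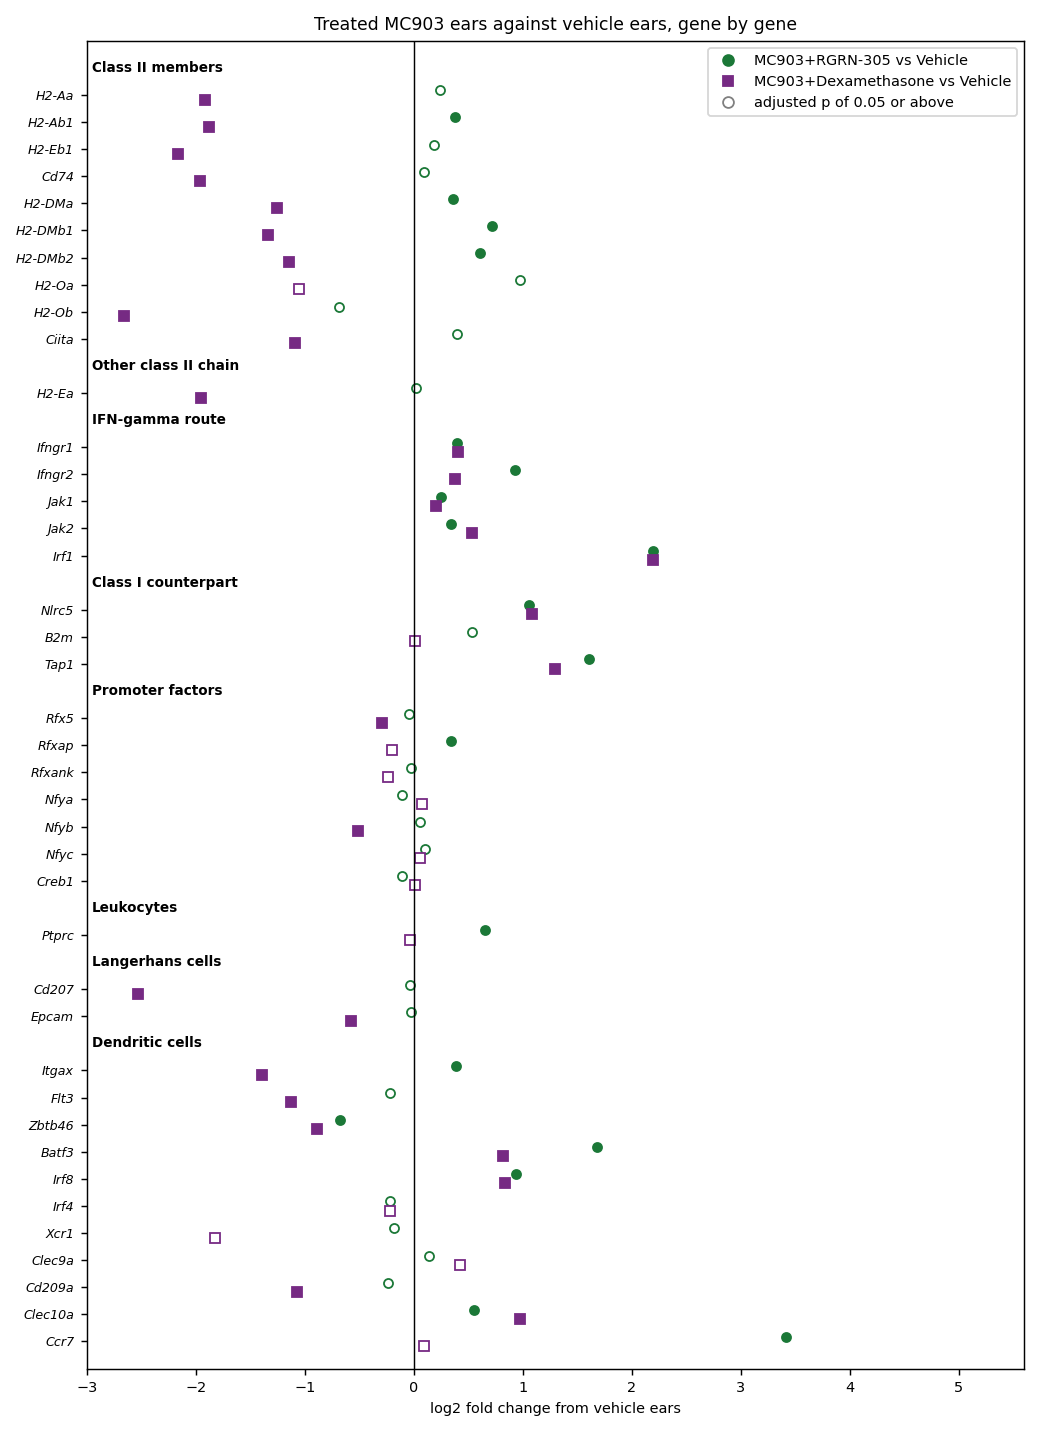
Log2 fold change against vehicle ears (horizontal axis) of the members and of genes of the other lists (vertical axis), with circles for RGRN-305 ears and squares for dexamethasone ears, open where the adjusted p was 0.05 or above. Ifng is left out because all 6 vehicle ears had 0 counts. The members in dexamethasone ears lie left of 0 (H2-Eb1 at −2.16), whereas Irf1 lies right of 0 in both groups, at 2.19. The Irf1 value of the dexamethasone ears was lower without mouse 3, which had 186 CPM.

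MHC class I genes, which have their own transactivator, are set beside the members for comparison. Nlrc5, the class I transactivator gene, B2m, the common light chain, and Tap1, a peptide transporter subunit, were called higher in MC903 than in vehicle ears (2.11, 2.71 and 2.88) and lower in both drug groups than in MC903 ears. In dexamethasone against vehicle ears Nlrc5 had 1.09 ± 0.35 (adjusted p = 0.0112, edgeR) and Tap1 1.30 ± 0.33 (adjusted p = 0.0018), and B2m had 0.01 ± 0.30 (adjusted p = 0.988). Without dexamethasone mouse 3 the Nlrc5 value was 0.40 (adjusted p = 0.27) and that of Tap1 was 0.66 (adjusted p = 0.0488). Between RGRN-305 and dexamethasone ears Nlrc5, B2m and Tap1 had −0.03, 0.53 and 0.31 (adjusted p = 0.955, 0.17 and 0.475), and without mouse 3 B2m and Tap1 were called at 0.86 and 0.95.

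Genes that serve class II in the endosome and at the cell surface were mixed. All 7 processing genes were called higher in MC903 than in vehicle ears, where 34.5% of all genes were. Among them were Ctss at 2.45 ± 0.21, the cathepsin that degrades the invariant chain, and Lgmn at 2.08 ± 0.18, an asparaginyl endopeptidase. In RGRN-305 and in dexamethasone against MC903 ears 5 were called lower and 1 higher, where 19.4% and 23.3% of all genes were called lower. All 7 were called higher in RGRN-305 than in vehicle ears, as were 30.3% of all genes. In dexamethasone against vehicle ears 3 were called higher and 1 lower, where 26.4% and 29.4% of all genes were. The lower one was Ifi30, the lysosomal thiol reductase (−0.63 ± 0.10, adjusted p = 7.31e-06, edgeR). Counts of Ctss per count of Cd74 were 0.128 to 0.208 in RGRN-305 ears, 0.431 to 0.554 in dexamethasone ears, 0.265 to 0.446 in MC903 ears and 0.0938 to 0.112 in vehicle ears. The protease was thus lowest relative to its substrate's transcript in vehicle ears, and dexamethasone and MC903 ears overlapped. Cd83, which stabilises class II at the surface of dendritic cells, was called lower in dexamethasone than in vehicle ears (−1.60 ± 0.25, adjusted p = 3.19e-06). Marchf1, the ubiquitin ligase that removes class II from the surface, had −0.34 there (adjusted p = 0.206). The co-stimulatory genes Cd80, Cd86 and Cd40 were called higher in MC903 than in vehicle ears (2.43, 0.95 and 2.91) and lower in both drug groups than in MC903 ears.

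Markers of cells that bear class II moved with the members in some comparisons and not in others, and their part in the result was not tested. The leukocyte gene Ptprc ranged over 22.1 to 40.5 CPM in RGRN-305 ears, 10.2 to 31.4 CPM in dexamethasone ears, 63.4 to 97.7 CPM in MC903 ears and 13.9 to 26.7 CPM in vehicle ears. Counts of H2-Ab1 per count of Ptprc were 5.42 to 7.96 in RGRN-305 ears, 1.90 to 2.36 in dexamethasone ears, 3.20 to 4.89 in MC903 ears and 6.33 to 10.4 in vehicle ears. On this ratio dexamethasone ears lay below every other ear (exact permutation p against vehicle ears 0.00952, adjusted 0.0149). MC903 ears lay below every vehicle ear (log2 difference −1.01), and RGRN-305 ears lay above every MC903 ear (0.70). In both comparisons the ratio went the other way from the level of H2-Ab1. Counts of H2-Ab1 per count of Itgax, which encodes CD11c of dendritic cells, were 14.4 to 23.1 in RGRN-305 ears, 11.9 to 14.0 in dexamethasone ears, 17.9 to 25.9 in MC903 ears and 14.7 to 22.1 in vehicle ears. Dexamethasone ears were again lowest, by a smaller margin (log2 difference from vehicle ears −0.50, against −1.85 for the Ptprc ratio, with the same p). Cd207, which encodes langerin of Langerhans cells, averaged 22.0 ± 4.02 CPM in RGRN-305 ears, 3.94 ± 1.49 CPM in dexamethasone ears, 19.9 ± 3.33 CPM in MC903 ears and 22.6 ± 3.04 CPM in vehicle ears. It was thus lower in dexamethasone than in vehicle ears (−2.53 ± 0.20, adjusted p = 3.13e-11, edgeR) and was not called in RGRN-305 or MC903 against vehicle ears (−0.04 and −0.18). Counts of H2-Ab1 per count of Cd207 were 6.61 to 12.2 in RGRN-305 ears, 7.05 to 13.4 in dexamethasone ears, 11.8 to 28.1 in MC903 ears and 5.57 to 8.66 in vehicle ears. This ratio went the other way from the Ptprc ratio, being higher in dexamethasone than in vehicle ears (log2 difference 0.63, exact permutation p = 0.0381, adjusted 0.0490) with overlap.

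The 2 Langerhans cell markers, Cd207 and Epcam, summed to 170 to 247 CPM in RGRN-305 ears and 119 to 135 CPM in dexamethasone ears. The sums were 206 to 324 CPM in MC903 ears and 170 to 245 CPM in vehicle ears. Epcam made up most of the sum in dexamethasone ears 1 to 4, at 131, 119, 114 and 133 CPM. Cd207 had 3.40, 5.71, 4.46 and 2.21 CPM there. Both were called lower in dexamethasone than in vehicle ears, Cd207 at −2.53 and Epcam at −0.57. In MC903 against vehicle ears Epcam was called higher (0.33), whereas Cd207 was not called (−0.18). The sums thus mainly followed Epcam and are not a measure of Langerhans cells. Of 11 dendritic cell markers, 8 were called higher in MC903 than in vehicle ears, and 9 were called lower in each drug group than in MC903 ears. Of all genes, 34.5% were called higher in MC903 ears, and 19.4% (RGRN-305) and 23.3% (dexamethasone) lower than in MC903 ears. In dexamethasone against vehicle ears 3 markers were called higher and 4 lower, and without dexamethasone mouse 3 the dendritic cells list had 1 higher and 5 lower. In that comparison 26.4% of all genes were called higher and 29.4% lower, and 22.1% were lower without overlap. The 4 lower genes, Itgax (−1.39 ± 0.19, adjusted p = 5.64e-07, edgeR), Flt3 (−1.12), Cd209a (−1.08) and Zbtb46 (−0.88), did not overlap between the groups, and neither did Clec10a, which was higher at 0.97. The summed dendritic level was 62.4 to 96.5 CPM in RGRN-305 ears, 46.7 to 88.7 CPM in dexamethasone ears, 121 to 151 CPM in MC903 ears and 45.4 to 76.5 CPM in vehicle ears, of which Clec10a alone averaged 43.5 CPM in dexamethasone ears and 22.2 CPM in vehicle ears. Of 9 monocyte and macrophage markers 8 were called higher in MC903 than in vehicle ears, and 8 lower in each drug group than in MC903 ears. Their summed level was 186 to 336 CPM in RGRN-305 ears, 156 to 282 CPM in dexamethasone ears, 460 to 655 CPM in MC903 ears and 163 to 255 CPM in vehicle ears. In dexamethasone against vehicle ears 4 monocyte and macrophage markers were called higher and 1, Csf1r, lower (−0.50), and without dexamethasone mouse 3 the monocytes and macrophages list had 1 higher and 1 lower. All 5 T cell markers were called higher in MC903 than in vehicle ears and lower in each drug group than in MC903 ears.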

How the data were processed

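RNA from 26 mouse ears was measured, 1 library per mouse, by a strand-specific kit from 100 ng of RNA with paired reads of 150 bases. According to the study's methods and the submitters' processing notes, reads were aligned to GRCm39 with Subread (v. 2.10.3), and the authors deposited raw counts of uniquely aligned, unambiguous reads per gene. The annotation release was not given in the sources used here. Of 57010 identifiers 56310 matched a GENCODE M39 symbol, and the other 700 held 0.0631% of counts.

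Groups came from the sample labels. Genes were kept by filterByExpr (minimum count 10, total 15), scaled by TMM and tested with edgeR (v. 4.0.16, R v. 4.3.3) in 1 quasi-likelihood fit with robust dispersion of all 4 groups, with 6 contrasts and Benjamini-Hochberg adjustment over 20167 genes. The SE was derived from the F statistic. Exact two-sided permutation tests used mean log2 CPM (prior count 2). Library totals were 13695023 to 35130972 counts, at which H2-Oa and H2-Ob had few counts and thus wide errors. The steps were tested on simulated data. Alternatives were DESeq2 (v. 1.42.0), its size factors, library totals alone, no filter, only the groups compared, a replicate block, each mouse left out and, added after seeing the data, the 2 shallowest libraries left out. Promoter windows were read from the GRCm39 genome. Tables and plots were made in Python 3.11.15 using scipy 1.17.1, numpy 2.4.6, matplotlib 3.10.9 and pandas 2.3.3.

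Named were the 10 members, genes of 8 pathway lists and of the cell marker lists, and the 5 genes most correlated with H2-Ab1 and with Ciita. The members and lists were chosen with earlier results of these data known. Of the genes so named 2 are not reported here, and counts and medians of lists are without them. Lists are described by counts and medians, without a set test. The sources do not say whether mice of 1 group were housed or processed apart. The p-values measure the spread between these mice and would not show an effect of housing or experiment shared by a group.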

Additional observations from a re-analysis of the deposited data

Results flagged for a closer look

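Of 40 sets of values (10 members in 4 groups), 2 held an ear far from the others of its group by Dixon's test, and chance gives about 1 in 20. For H2-DMb2, vehicle mouse 1 had 14.5 CPM and the other 5 vehicle ears had 17.2 to 18.6 CPM. For H2-Oa, vehicle mouse 2 had 0.521 CPM, from 8 counts, and the other vehicle ears had 0.0763 to 0.197 CPM.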

How the results depend on the processing

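Of the member log2 fold changes under all alternatives, 1944 kept their direction and call, 16 gained the call, 9 lost it and 8 reversed. The reversals were H2-Ob in MC903 against vehicle ears, at −0.23 with library totals (adjusted p = 0.529) and between −0.0893 and 0.15 with 1 mouse left out, and H2-Eb1 (−0.00431) and Cd74 (−0.0995) in RGRN-305 against vehicle ears with library totals. The median log2 fold change of all genes against vehicle ears was −0.19 (RGRN-305), −0.32 (dexamethasone) and −0.28 (MC903) with library totals, against 0.00, −0.05 and −0.02 with TMM, and 0.10 against 0.03 in RGRN-305 against MC903 ears. Genes called higher and lower then numbered 4407 and 9980 in MC903 against vehicle ears (6951 and 7209 with TMM), 3802 and 8481 in RGRN-305 against vehicle ears (6119 and 5956), 3043 and 9269 in dexamethasone against vehicle ears (5331 and 5921), and 5065 and 3160 in RGRN-305 against MC903 ears (3745 and 3905), and 4846 and 2549 in RGRN-305 against dexamethasone ears (3553 and 3592). Members called higher in RGRN-305 than in vehicle ears fell to 2 with library totals, against 4, and 1 member (H2-Ob) was called lower with library totals, with DESeq2 and with only the groups compared. With 1 mouse left out, 2 to 5 members were called higher and 0 to 1 lower in RGRN-305 against vehicle ears, 8 to 9 lower in RGRN-305 against MC903 ears, 9 to 10 higher in RGRN-305 against dexamethasone ears and 9 to 10 lower in dexamethasone against vehicle ears; the count stayed at 9 higher in MC903 against vehicle ears and at 10 lower in dexamethasone against MC903 ears. H2-Ob in RGRN-305 against MC903 ears was called with DESeq2 (adjusted p = 0.0307), with only the groups compared (0.0193), without RGRN-305 mouse 1 (0.0365) and without dexamethasone mouse 1 (0.0393). H2-Ab1 in RGRN-305 against vehicle ears also lost the call without vehicle mouse 3 (0.05003), and H2-Oa gained it without vehicle mouse 2 (0.0198), without RGRN-305 mouse 4 (0.0414) and without the 2 shallowest libraries (0.0181). Ciita gained it there with only the groups compared (0.0103) and in dexamethasone against vehicle ears lost it in that fit (log2 −1.03, adjusted p = 0.0502). With a replicate block, 9 members were called higher in RGRN-305 against dexamethasone ears (H2-Oa 1.96, adjusted p = 0.0517), and the other member counts did not move. The mouse numbers did not pair the ears: over 32 same-numbered pairs the correlation of deviations was −0.342 to 0.286, with a median of −0.0585. The cause of these changes was not tested.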

Other observations

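Over the 26 libraries, the genes whose log2 CPM was most like that of H2-Ab1 were H2-Ea (Pearson r = 0.989), Cd72 (0.979), Itgax (0.975), Dipk1a (0.971) and Hvcn1 (0.960). Among the 5 most like Ciita were Rinl (0.946), Itgax (0.938), Napsa (0.933) and Arhgap9 (0.931), and Ciita and H2-Ab1 themselves had 0.937. These values describe libraries that share the 4 treatments, and a choice by Spearman's rho shared 0 of the 5 genes in either case. Within the RGRN-305, MC903 and vehicle groups taken alone, 6 relations of Ciita to H2-Ab1 or Cd74 had Pearson r from 0.0762 to 0.771 and Spearman's rho from 0.238 to 0.714, and none passed (exact permutation test, adjusted p from 0.279 to 0.847 for r and from 0.363 to 0.582 for rho). Without the 2 ears farthest from the median of Ciita, r to H2-Ab1 was 0.0645 in RGRN-305 ears (0.421 with them), −0.0188 in MC903 ears (0.0762) and 0.971 over the 4 vehicle ears left (0.768), and r to Cd74 was 0.0656 (0.405), 0.183 (0.132) and 0.828 (0.771) in the same order.

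Of the genes known to restrain Ciita or class II, Prdm1, Il10, Socs1 and Tgfb1 were all called higher in MC903 than in vehicle ears (log2 0.82, 4.39, 3.10 and 0.88, edgeR) and lower in RGRN-305 than in MC903 ears (−0.26, −2.20, −1.59 and −0.80). In dexamethasone against MC903 ears Prdm1, which encodes the repressor BLIMP-1, was called higher (0.28), and Il10, Socs1 and Tgfb1 were called lower (−3.29, −1.70 and −0.89), with −4.09 for Il10 and −2.77 for Socs1 without dexamethasone mouse 3. Prdm1 was also called higher in dexamethasone than in vehicle ears, at 1.10.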
